A study of Homo sapiens with 3 samples.

Results

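The zinc finger genes of chromosome 19 were examined in accessible chromatin of hCMEC/D3, a cell line made from endothelium of small human brain vessels and immortalized, here grown to confluence on collagen. Members were chosen by name and place alone: protein-coding genes on chromosome 19 of a RefSeq gene table (GRCh38.p14) whose symbol is ZNF followed by digits and at most 1 letter. This gave 246 of the 20033 protein-coding genes of the table and left 1205 others on the chromosome. The others were taken by chromosome name alone. They include entries such as KIR2DS1, KIR2DS5 and LILRA3, whose place on the main chromosome sequence was not checked. Some such entries share a called peak, and their effect on the shares of the others was not tested. The measurement is 1 ATAC-seq library, labelled replicate 2, in which the Tn5 transposase cuts and tags open DNA, so read ends pile up where chromatin is accessible. The series also holds 2 RNA-seq libraries of the line, listed by transcript identifiers that the reference tables do not link to genes; they were not analysed here. There was no second condition, treatment or cell type, and the growth protocol gives several passages without saying which was used for this library. With 1 library, every value below describes that library and carries no replicate check and no test.

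C2H2 zinc finger proteins bind DNA through tandem finger units, each holding a zinc ion, and form the largest family of human transcription factors. Most of those encoded on chromosome 19 also carry a KRAB domain, which recruits the corepressor TRIM28 and with it the histone methyltransferase SETDB1 and HP1 proteins, so that many act as repressors, often of transposable elements. The genes arose by tandem duplication and lie in clusters, with promoters at one end and the finger array in a last large exon at the other, where many cell types carry the silencing mark H3K9me3.

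Promoter sequences show how alike some members are and where they differ. RefSeq promoter entries (GRCh38.p14) were matched for 216 of the 246 members. The first 4 sequences below come from the short arm and form 2 close pairs, each with 1 open and 1 closed member: ZNF91 had a peak at its start and ZNF208 had none, and ZNF486 had one and ZNF90 had none. The last 2, ZNF547 and ZNF226, come from the long arm and both had a peak. Each line gives the 250 bases before the start, 5′ to 3′ on the gene's strand. Capitals mark 3 words searched on both strands: TCCAATCA, ACTTCCGG and the ETS core CCGGAAG, which overlaps ACTTCCGG in its reverse complement.
ZNF91 (chr19:23395472-23395721, minus strand): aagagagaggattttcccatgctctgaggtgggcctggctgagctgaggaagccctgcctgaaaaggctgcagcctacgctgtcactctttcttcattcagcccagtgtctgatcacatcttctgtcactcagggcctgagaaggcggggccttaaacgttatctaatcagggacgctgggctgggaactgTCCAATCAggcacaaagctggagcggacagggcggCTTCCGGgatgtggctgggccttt
ZNF208 (chr19:22010944-22011193, minus strand): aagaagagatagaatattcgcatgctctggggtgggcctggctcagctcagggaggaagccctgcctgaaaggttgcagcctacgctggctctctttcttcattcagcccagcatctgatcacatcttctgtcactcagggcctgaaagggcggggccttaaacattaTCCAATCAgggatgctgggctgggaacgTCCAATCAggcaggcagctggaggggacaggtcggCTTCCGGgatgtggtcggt
ZNF486 (chr19:20166964-20167213, plus strand): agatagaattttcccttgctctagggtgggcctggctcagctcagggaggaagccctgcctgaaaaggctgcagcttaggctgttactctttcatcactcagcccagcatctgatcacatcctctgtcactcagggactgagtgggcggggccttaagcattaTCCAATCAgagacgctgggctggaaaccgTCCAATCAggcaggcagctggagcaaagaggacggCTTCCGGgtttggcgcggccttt
ZNF90 (chr19:20077750-20077999, plus strand): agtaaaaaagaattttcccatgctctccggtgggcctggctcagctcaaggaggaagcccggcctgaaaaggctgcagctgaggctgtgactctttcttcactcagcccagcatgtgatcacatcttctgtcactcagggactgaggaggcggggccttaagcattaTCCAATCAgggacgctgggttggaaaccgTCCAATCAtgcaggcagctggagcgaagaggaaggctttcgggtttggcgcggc
ZNF547 (chr19:57363301-57363550, plus strand): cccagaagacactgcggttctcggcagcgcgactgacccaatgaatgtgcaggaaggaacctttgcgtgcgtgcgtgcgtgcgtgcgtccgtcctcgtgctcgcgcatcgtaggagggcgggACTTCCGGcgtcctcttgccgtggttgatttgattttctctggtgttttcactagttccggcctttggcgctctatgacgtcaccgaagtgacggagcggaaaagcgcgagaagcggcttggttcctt
ZNF226 (chr19:44164850-44165099, plus strand): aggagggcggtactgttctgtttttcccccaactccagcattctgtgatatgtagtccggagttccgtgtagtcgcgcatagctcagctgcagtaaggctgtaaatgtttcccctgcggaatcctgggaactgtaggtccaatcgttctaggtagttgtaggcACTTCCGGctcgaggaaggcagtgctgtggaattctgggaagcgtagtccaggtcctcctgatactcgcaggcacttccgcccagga
Over these 250 bases ZNF91 and ZNF208 differed by 35 edits, an identity of 86.0%, and ZNF486 and ZNF90 by 27, an identity of 89.2%.

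Most zinc finger genes of the chromosome were open at one place. A peak lay in the gene or within 1 kb of it for 226 of the 246 members (91.9%, 95% Wilson interval 87.8% to 94.7%), against 83.7% of all protein-coding genes and 81.2% of the other genes of chromosome 19. A peak within 1 kb of either end of the gene, called an end peak below, was found for 205 members (83.3%, interval 78.2% to 87.5%), against 72.8% of all protein-coding genes and 71.7% of the others on the chromosome. Intervals cover counting over genes only, and neighbouring genes can share a peak. The number of peaks per gene was low: 160 members (65.0%) had exactly 1, compared with 26.3% of the other genes of the chromosome. When the others were weighted to the members' gene lengths, in 10 length bins, 18.1% had exactly 1. Members carried a mean of 1.31 peaks and the length-weighted others 2.98. Only 19 members (7.72%) had 3 or more peaks, compared with 32.5% of the others. Genes of the same name pattern on other chromosomes, 263 in number, lay between: 46.4% had exactly 1 peak and 25.5% had 3 or more.

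**Figure D1:**
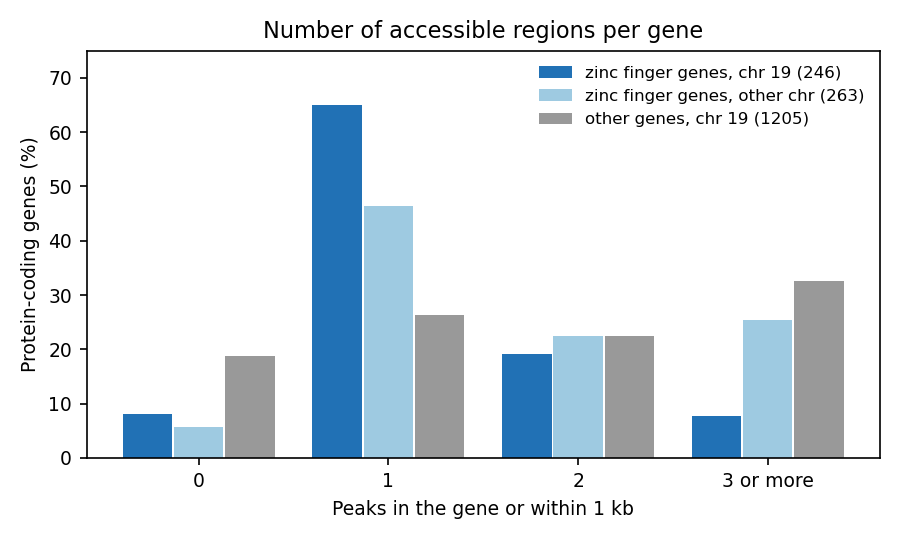
Share of protein-coding genes (%, vertical axis) with 0, 1, 2 or 3 or more ATAC peaks in the gene or within 1 kb, for the 246 zinc finger genes of chromosome 19, the 263 of the same name pattern elsewhere and the 1205 other genes of chromosome 19. The bar at 1 peak reaches 65.0% for the zinc finger genes of chromosome 19 and 26.3% for the other genes of the chromosome.

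Most members with a promoter entry were open at the start of the gene and few at the opposite end. Among the 216 members with a promoter entry, 199 (92.1%, interval 87.8% to 95%) had a peak within 1 kb of a listed start, compared with 69.1% of the 969 other genes of the chromosome with an entry and 75.5% of these after weighting for length. The opposite end, where the finger exon lies, had a peak in 10 members (4.63%, interval 2.53% to 8.31%), compared with 291 of the 969 others, or 29.6% of these after weighting. No member was open at the far end alone; with 216 members the upper Wilson bound is 1.75%. Of the 10 far-end peaks, 8 lay within 1 kb of an end or a listed start of another gene. No such count is given here for the far-end peaks of the 291 others, which may also belong to neighbours. The far end of ZNF324 carried the peak at the start of ZNF446, with a pileup of 78.6 tags, and the far end of ZNF544 that of ZNF8, with 57.7 tags. The far-end peak of ZNF653 lay at an end of ELAVL3, where an end is either side of the gene. That of ZNF580 lay at the listed start of ZNF581. Those of ZNF574 and ZNF577 lay at neither kind of site. ZNF577 was the member with the highest far-end pileup, 79.6 tags over 578 bp. The 30 members without an entry included 22 with an end peak and 5 with no peak, and are not part of the 92.1%.

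Start peaks of the members lay over the start itself. Of the 195 members with a peak at the listed start nearest the gene's outer end, 193 had that start inside the peak (interval 96.3% to 99.7%), compared with 83.2% of 650 such peaks at other genes. The peak centre lay a median of 66.5 bp inside the gene (quartiles -37.3 and 159 bp). For the other genes the median was -57.8 bp, upstream of the start, with quartiles of -227 and 165 bp. The open stretch reached a median of 413 bp upstream and 543 bp into the gene, against 469 and 397 bp for the others.

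**Figure D2:**
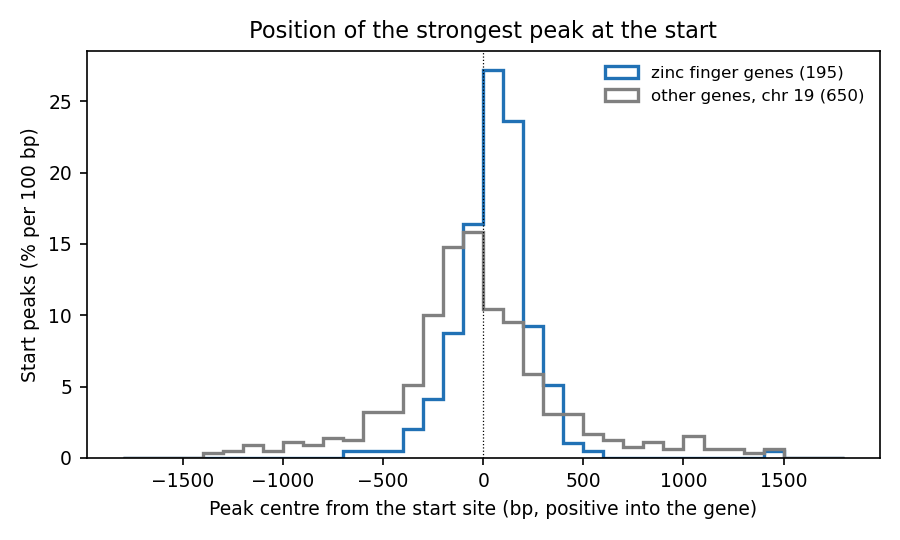
Distance of the peak centre from the start site (bp, horizontal axis, positive into the gene) as the share of start peaks per 100 bp (vertical axis), for 195 zinc finger genes and 650 other genes of chromosome 19. The members' curve is narrower and its median is 66.5 bp inside the gene, while the other genes' median is 57.8 bp upstream (-57.8 on the axis).

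Peaks at the members were of moderate pileup on a low background. The pileup is the number of stacked tags as the authors' caller reports it. For broad peaks it is a mean over the region and not the height of a summit, as is the fold. Wide regions can therefore read low in both. For the strongest end peak of each member the pileup ran from 8.43 to 87.7, with a median of 44.5 and quartiles of 34.6 and 55.4. Other genes of the chromosome had a median of 49.3 and reached 138, and 82 of the 205 members (40.0%) were above that median. The fold over local background was higher in the members: its median was 6.68, against 4.92, and 177 of 205 members (86.3%) were above the others' median. The local background worked out from pileup and fold was 5.68 tags in the members and 8.78 in the others. As both inputs are means over the region, this background is approximate. With no control sample it comes from the same library within 10 kb, so other peaks nearby raise it. Fold and background are therefore not independent of the number of peaks per gene. Peak width had a median of 976 bp (range 224 to 2070), against 903 bp (200 to 2688). It was 1058 bp over all protein-coding genes and 1053 bp for zinc finger genes on other chromosomes, both wider than the members. Those zinc finger genes had a median fold of 5.84 and a background of 6.96 tags, between the members and the other genes of chromosome 19. In each of the 10 length bins the members' median fold was above that of the other genes of chromosome 19. The members' median pileup was above that of those genes in 2 bins.

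The members with the highest end peaks were ZNF837, ZNF414, ZNF584, ZNF577 and ZNF564. ZNF837, at chr19:58367623-58381030, had 1 peak of 87.7 tags at chr19:58380433-58381481, over its start; the peak list names no build, and its positions are read here as GRCh38. ZNF414 followed with 83.1 tags over 944 bp and ZNF584 with 81.6 tags over 869 bp. ZNF564 had 79.3 tags over 1127 bp. Higher in pileup than any of these was a peak of 105 tags (chr19:56140509-56141313) inside ZNF444. It lay at a listed start more than 1 kb from the gene's end, so that it is no end peak. The highest fold among end peaks was 11.5 at ZNF549, with 57.5 tags over 595 bp.

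The lowest end peaks were at ZNF540 (8.43 tags), ZNF154 (9.83), ZNF578 (10.7), ZNF439 (13.2) and ZNF69 (14.6). All 5 sat where the local background was 2.37 tags, the floor set by the caller. ZNF154, a gene known for promoter methylation in many tumours, had a peak of 224 bp, the narrowest end peak of a member. ZNF69 lies across ZNF700 and ZNF763 and had 4 peaks in all, 3 of them inside the gene.

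The widest end peaks were at ZNF576 (2070 bp), ZNF700 (1937 bp), ZNF865 (1932 bp), ZNF850 (1926 bp) and ZNF888 (1817 bp). Their pileups lay between 39.5 and 47.5 tags, around the median of the members, and their folds between 3.87 and 4.69. Width and pileup were only loosely related over the 205 members (Pearson r = 0.16, Spearman rho = 0.16, across genes of 1 library, some of which share a peak).

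A fixed list of members with a known role was read in the same way. ZNF91 and ZNF93, repressors of SVA and L1 retrotransposons, each had 1 peak, at the start: 62.0 tags over 1189 bp for ZNF91 (chr19:23305004-23395471) and 52.1 tags over 1528 bp for ZNF93 (chr19:19900946-19935575). ZNF274, which binds the 3′ exons of other zinc finger genes and recruits SETDB1 there, had 67.9 tags over 1192 bp. ZNF302 had 65.9 tags, ZNF765 44.0, ZNF675 38.2 and ZNF224, a KRAB repressor, 34.5. ZNF649 had 2 end peaks. The stronger, of 28.5 tags, lay outside the gene and over the listed start of ZNF577. ZNF580, a short gene of 2469 bp, had 2 end peaks, the stronger with 38.6 tags over 1431 bp. ZNF382 and ZNF471, both known as genes methylated in tumours, were lower, with 24.7 and 16.9 tags. ZNF331, an imprinted gene, had no end peak and the most peaks of any member, 6 inside the gene. All 6 of its listed starts had a peak within 1 kb. The strongest of the 6 had 74.5 tags (chr19:53520493-53521327), the next 33.4 and 24.9, and the other 3 between 12.4 and 18.8.

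Some end peaks were shared by neighbours. The strongest end peak was common to 2 members in 8 cases, 16 members in all. They were ZNF490 with ZNF791, ZNF529 with ZNF382, ZNF461 with ZNF567, ZNF790 with ZNF345, ZNF829 with ZNF568, ZNF880 with ZNF528, ZNF544 with ZNF8 and ZNF324 with ZNF446. Their gene extents overlapped by up to 427 bp or stood at most 1500 bp apart. The peak at ZNF829 and ZNF568, which are 41 bp apart, had 50.5 tags over 960 bp. The peak of ZNF529 and ZNF382 had 24.7 tags over 1344 bp. Counting such members once left the share with an end peak at 82.8%.

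Inside the members, away from their ends, peaks were sparse. The members' interiors, 6.57 Mb in union, held 1.54 peaks per 100 kb (95% Poisson interval 1.25 to 1.87, counting error only). Interiors of the other genes of the chromosome held 6.85 per 100 kb (6.51 to 7.20). In all, 300 distinct peaks lay in or within 1 kb of a member, 7.99% of the 3753 on the chromosome. Of these, 210 were within 1 kb of a member's end, with a median of 44.0 tags. Of the 90 away from the members' ends, 35 were at a further listed start of a member and had a median of 49.3 tags. Another 5 were at an end of another gene. The remaining 50, which lay at none of these, were low and narrow, with a median of 15.7 tags over 384 bp. No interior peak was found in 177 members, and 1 in 49. An interior peak was thus present in 28.0% of members, against 47.4% of the other genes of the chromosome. The share was 45.2% for zinc finger genes on other chromosomes and 55.9% for all protein-coding genes, without weighting for length. The most were in ZNF331, with 6, and ZNF565, with 4, followed by 8 members with 3 each, of which ZNF254, ZNF536 and ZNF541 come first by symbol. In ZNF565 the strongest, of 79.2 tags, was also the start peak of ZNF146. ZNF536, a neural zinc finger gene of 487995 bp and the longest member, had 3 peaks of 11.6 to 13.0 tags. ZNF541 had 3 peaks of 11.2 to 16.6 tags and none at its listed start.

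The share of members with an end peak depended on gene length. Among the 172 members of up to 30527 bp, 156 (90.7%) had one, compared with 71.1% of the 874 other genes of that length range. Among the 74 longer members, 49 (66.2%) had one, compared with 80.6% of 232 others. The order thus turned with length: members were above the others in the 7 shorter bins and below them in the 3 longer ones. After weighting for length the members stood at 83.3% and the others at 76.5%, a difference of 6.83 percentage points. Its size depended on the settings: it was 3.95 with a 2500 bp window and 11.5 with a 500 bp window. It was 12.5 with peaks that reached 5 in −log10 q and 20.7 with those that reached a fold of 4. Fold was itself higher in the members' peaks, so that limit is not neutral between the groups. With as many peaks taken by highest pileup in its place, the difference was 10.9. At start sites only it was 16.7. For zinc finger genes on other chromosomes the weighted share was 90.5%, above that of the members. Of the long members, 9 belonged to the run of closed genes described next, and without them 75.4% of 65 long members had an end peak and 93.8% had a peak somewhere in the gene, beside 94.0% of the long others.

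**Figure D3:**
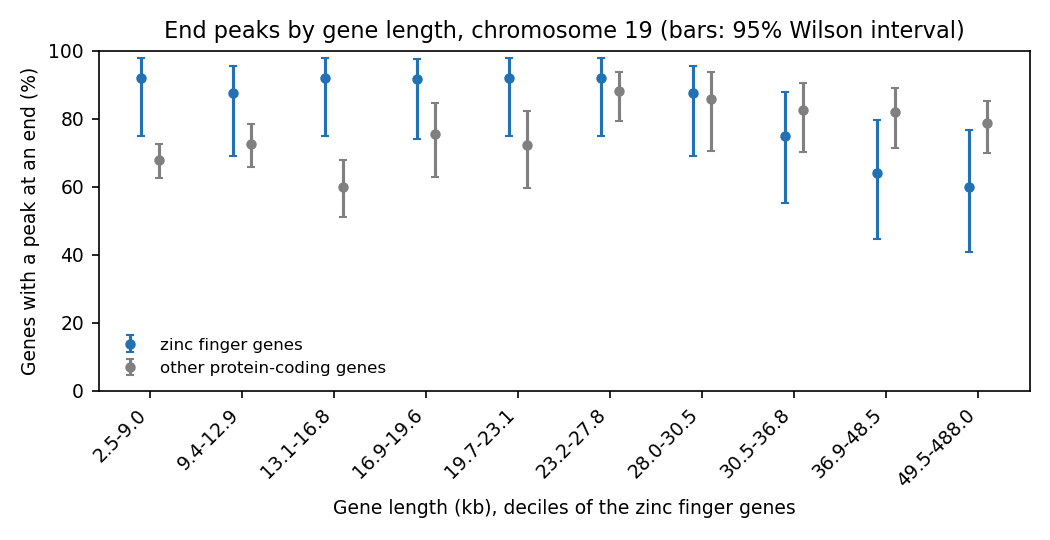
Share of genes with a peak within 1 kb of an end (%, vertical axis) by gene length (kb, horizontal axis, deciles of the zinc finger genes), for the zinc finger genes and the other protein-coding genes of chromosome 19; bars are 95% Wilson intervals. The zinc finger genes lie at 87.5% to 92% in the 7 shorter bins and at 60.0% to 75.0% in the 3 longer ones, where the other genes lie at 78.7% to 82.7%.

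The closed members were not spread evenly. Of the 41 members without an end peak, 21 had a peak inside the gene, at a listed start for 16 of them, and 20 had none at all. Of those 20, 10 were consecutive members: ZNF208, ZNF257, ZNF676, ZNF729, ZNF98, ZNF492, ZNF99, ZNF723, ZNF728 and ZNF730. They occupy chr19:21939815-23147221, a stretch of 1.21 Mb on the short arm with no other protein-coding gene, and no peak was called in it. The whole peak-free interval ran from 21890349 to 23249843, 1359 kb, the third longest on the chromosome. The 2 longer ones held no member. Just outside it, ZNF43 had an end peak of 50.3 tags and ZNF724 one of 73.8 tags, both above the median of the members. Outside this run no 2 consecutive members were without a peak. The remaining 10 without a peak were ZNF177, ZNF560, ZNF90, ZNF793, ZNF404, ZNF534, ZNF667, ZNF835, ZNF418 and ZNF135.

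**Figure D4:**
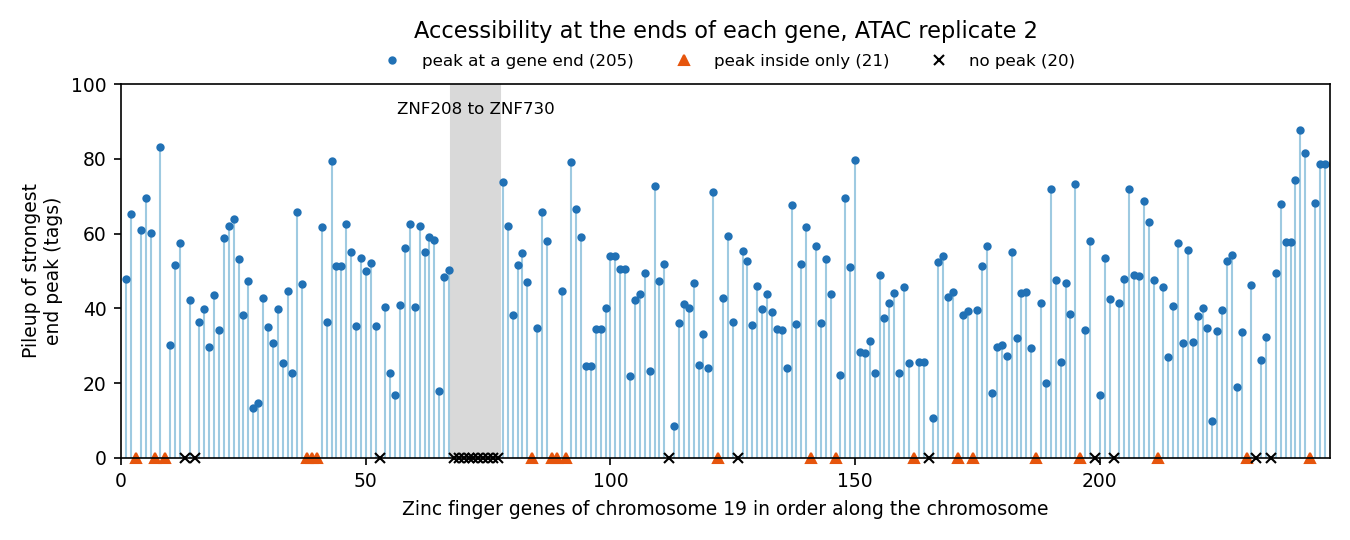
Pileup of the strongest end peak (tags, vertical axis) for the 246 zinc finger genes in their order along chromosome 19 (horizontal axis), with triangles for genes with a peak only inside (21) and crosses for genes without a peak (20). The grey band marks the 10 consecutive genes from ZNF208 to ZNF730 without a peak, between neighbours with 50.3 and 73.8 tags.

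The clusters differed in how many members were open. Grouping members whose gaps were at most 250 kb gave 12 clusters of at least 5 members, which held 226 of the 246. The cluster from ZNF737 to ZNF91, 25 members over 2.87 Mb, had end peaks at 15 (60.0%, interval 40.7% to 76.6%) and held 20 peaks in all, 0.698 per 100 kb, against 6.41 over the chromosome. The end peaks of its 15 open members had a median pileup of 55.0 tags and a median fold of 8.03, the highest median fold of the 12 clusters. In the cluster from ZNF264 to ZNF446 at the end of the long arm 38 of 43 members (88.4%, interval 75.5% to 94.9%) had an end peak, with a median of 48.2 tags. In that from ZNF175 to ZNF331 it was 34 of 39 (87.2%) with 38.7 tags, and in that from ZNF653 to ZNF791 22 of 25 (88.0%) with 45.5 tags. The cluster from ZNF565 to ZNF573 had 24 of 26 (92.3%). The small cluster from ZNF628 to ZNF580 had all 7, with a median fold of 4.61, and 12.4 peaks per 100 kb. The intervals of the larger clusters overlap.

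Close copies of a promoter could be open at one gene and without a peak at another. For each of the 216 members with an entry the most similar promoter among the others was found over 300 bp. Of the 21 members without a peak at the start nearest their outer end, 6 had a copy at least 75% identical, and in all 6 cases that copy had a peak. Such a peak was present at 90.3% of all 216 members. ZNF208, ZNF257, ZNF492, ZNF723 and ZNF730 lie in the run of closed genes described above, so the 6 are not separate cases. ZNF208 was 85.7% identical to ZNF91 (62.0 tags), ZNF90 86.7% to ZNF486 (40.3 tags) and ZNF257 82.0% to ZNF85 (56.1 tags). ZNF492 was 79.0% identical to ZNF431 (62.1 tags), ZNF730 78.7% to ZNF724 (73.8 tags) and ZNF723 75.3% to ZNF493 (58.2 tags). Over the 300 bp, CG counts in the closed copy were lower by 1 in 2 pairs (10 in ZNF208 and 11 in ZNF91, 9 in ZNF90 and 10 in ZNF486). They were equal in ZNF723 and ZNF493 (10). In 3 pairs they were higher: 13 in ZNF257 and 9 in ZNF85, and 16 against 14 both in ZNF492 and ZNF431 and in ZNF730 and ZNF724. Over the 250 bases printed above, ZNF208 and ZNF91 held 7 each, and ZNF90 held 9 against 7 in ZNF486. In the sequences above, TCCAATCA occurs 82 and 54 bases before the start of ZNF208 and 59 before that of ZNF91, and ZNF486 and ZNF90 hold it at 87 and 58 and at 83 and 54. The ETS core was found in ZNF91 (24 bases before the start), ZNF208 (19) and ZNF486 (23), and not in these 250 bases of ZNF90. How the authors treated reads that match several copies is not given in the sources used here, and its part in the missing peaks was not tested. No peak means only that none was detectable at this depth, at which the lowest pileup called was 8.0 tags. Over all members, 43 of 49 with a copy at least 75% identical had a start peak (87.8%), and so did 152 of the 167 below that (91.0%).

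Promoter words common in the members were not spread evenly along the chromosome. The 8-base word TCCAATCA (TGATTGGA on the other strand), the one with the largest excess in members over all promoters, was in 52 of 216 member promoters (24.1%), against 0.826% of the other promoters of the chromosome and 1.79% of all protein-coding promoters. All 52 were on the short arm, where 73 members had an entry. It was in 19 of 19 promoters of the ZNF737 to ZNF91 cluster, 6 of 6 of the ZNF101 to ZNF486 cluster and 19 of 24 of the ZNF653 to ZNF791 cluster, and in 0 of 10 of the ZNF317 to ZNF846 cluster. It contains CCAAT, which was in 54.2% of member promoters and 36.4% of all. ACTTCCGG (CCGGAAGT on the other strand), the next word by excess that shared no member promoter with the first, was in 45 (20.8%), against 6.15% of all promoters. Of these, 44 were on the long arm, 23 of them among the 40 promoters of the ZNF264 to ZNF446 cluster. Both words were picked from these promoters, so their excess is a description. The second word was picked for sharing no promoter with the first, which fills most short-arm promoters. Its place on the long arm therefore follows in part from that choice. A start peak was present at 45 of 52 promoters with TCCAATCA (86.5%) and 44 of 45 with ACTTCCGG (97.8%), the exception being ZNF534, against 90.3% of all 216. The ETS core CCGGAAG was in 44.9% of member promoters and 14.1% of all, and GGGCGG, the box of Sp and KLF factors, in 67.1% and 58.3%. By arm, the ETS core was in 28 of 73 short-arm promoters (38.4%) and 69 of 143 long-arm promoters (48.3%). In the ZNF737 to ZNF91 cluster of the short arm it was in 16 of 19. TATAAA was in 2.31% of member promoters and 9.75% of all.

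Among promoters of low CG content, a larger share of members than of other genes had a start peak. Member 300 bp promoters held a median of 20 CG dinucleotides (quartiles 14 and 25.3), close to the 21 of the other genes of the chromosome, which ranged more widely (quartiles 9 and 31). Among promoters with 5 to 9 CG, 10 of 14 members had a start peak (71.4%, interval 45.4% to 88.3%), compared with 39 of the others (26.2%, 19.8% to 33.8%). With 10 to 14 CG it was 35 of 40 (87.5%, 73.9% to 94.5%) compared with 55 of 96 (57.3%, 47.3% to 66.7%). With at least 20 the shares were 93.9% and 91.5% and their intervals overlapped. Members without a start peak had a median of 16 CG and those with one 20. Some closed members were rich in CG, such as ZNF667 with 42 and ZNF135 with 32.

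**Figure D5:**
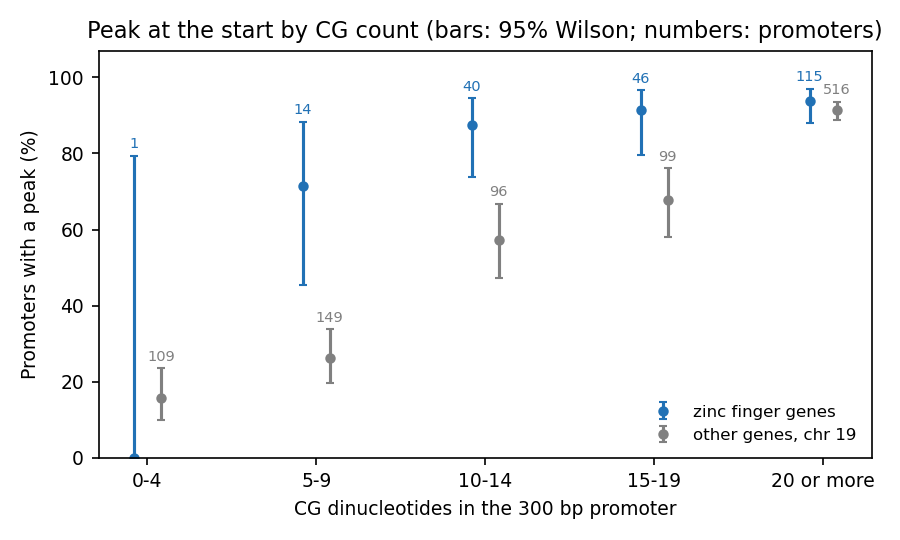
Share of promoters with a peak within 1 kb of the start (%, vertical axis) by the number of CG dinucleotides in the 300 bp promoter (horizontal axis), for zinc finger genes and other genes of chromosome 19; bars are 95% Wilson intervals and numbers give the promoters. At 10 to 14 CG the zinc finger genes stand at 87.5% and the others at 57.3%, and at 20 or more both exceed 91%.

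Genes of the repressor machinery that KRAB zinc finger proteins recruit were open too. Of a list of 21, 19 had an end peak (72.8% of all protein-coding genes did). All 21 had a peak in the gene or within 1 kb, as did 83.7% of all protein-coding genes. TRIM28, itself at the end of chromosome 19, had an end peak of 80.6 tags, SETDB1 one of 37.6 and ATRX, which binds the 3′ exons of zinc finger genes, one of 30.5. CHD3 and UHRF1 had no end peak, and UHRF1 had a peak of 45.7 tags at its listed start, inside the gene. As a check of the label, 8 of 8 endothelial marker genes had an end peak, with pileups of 11 to 62.7 tags, and so did 4 of 5 markers of other brain cell types (RBFOX3, GFAP, MBP and PDGFRB, 13.6 to 38.5 tags), so these lists do not tell the cell types apart.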

How the data were processed

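One ATAC-seq library was analysed; the 2 RNA-seq tables were left out because no table here links their transcripts to genes. Per the file headers, the authors called broad peaks with MACS 2.2.7.1 in single-end mode and with no control sample (shift -100 bp, extension 200 bp, q cutoffs 0.05 for strong and 0.1 for broad regions; the labels describe paired-end sequencing), with an effective genome size of 1870000000 bp, the caller's mouse preset. The header gives 31532245 tags, 22188172 after keeping 1 per position. The deposited list of 106415 peaks gives position, length (bp, a value outside the other units), pileup signal, fold enrichment ratio, and −log10 p-value and −log10 q-value. The submitters' processing notes name Bowtie2, SAMtools 1.13, Picard and the builds GRCh38 and mm10, with no role. The list names no build: 90.3% of members had a peak at their start in GRCh38.p14 coordinates and 6.02% to 11.6% after offsets of 5 to 50 kb.

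Peaks were placed with Python 3.11.15, pandas 2.3.3, numpy 2.4.6 and scipy 1.17.1, using windows of 1 kb and counting any overlap from 1 bp up. Starts and strands came from the RefSeq promoter table (250 bp before to 50 bp after each start). Of several end peaks, the one of highest pileup was used. Local background was (pileup + 1) / fold - 1; the header's tags and genome size give a floor of 2.37 tags. Length weighting gave the other genes the members' distribution over 10 length bins. Placement was checked on simulated peaks. Named genes were the 5 members highest and lowest in pileup, widest, with most interior peaks and longest without a peak, and a fixed list; genes with the highest fold or far-end or interior pileup, those sharing a peak, and those in sequence pairs were added after their values were seen. Members, lists, clusters and words were chosen with earlier results of these data known. Alternatives were windows of 500 and 2500 bp, filters on q, fold and pileup, a 200 bp overlap, 5 length bins and other comparison genes.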

Additional observations from a re-analysis of the deposited data

How the results depend on the processing

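The share of members with an end peak was 83.3% and became 87.8% with a window of 2500 bp and 92.1% at start sites only. Its difference from the length-weighted other genes, 6.83 percentage points, became 11.5 with a 500 bp window, 12.5 when peaks had to reach 5 in −log10 q and 20.7 when they had to reach a fold of 4. It was 3.95 with the 2500 bp window, and 10.9 when as many peaks as passed that fold limit were taken by highest pileup. At start sites only, an alternative chosen after seeing the data, it was 16.7. The density of peaks inside members, 1.54 per 100 kb, became 1.14 under that q limit, 1.08 under that fold limit and 1.02 when as many peaks were taken by highest pileup. Without the 10 consecutive members that had no peak, also chosen after seeing the data, the share with a peak anywhere was 95.8% in place of 91.9%. Across all settings, 35 of 45 values moved by less than their counting intervals, and none changed sign. The causes were not tested. No paired analysis was possible because there was 1 ATAC library, which also means that no replicate could be left out. The depth, 22188172 tags after filtering, limits what an absent peak shows.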
